A study of Homo sapiens with 12 samples.

Results

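The 7 genes described here are the chemokines CXCL1, CXCL2 and CXCL8, the interleukins IL6 and IL24, and NFKBIA and ZC3H12A, whose products switch inflammatory signalling off. They were chosen by symbol with earlier results of the same comparisons known. All 7 were among the 1810 genes of the RSL3 table, and IL6 and IL24 were also among the 1424 rows of the ATOH8 table. The 12 RNA-seq libraries, in 4 groups of 3, came from DU145, a line established from a metastasis of a prostate carcinoma. RSL3 cells were wild-type DU145 given for 24 h the compound RSL3, which blocks GPX4, the enzyme that clears lipid peroxides, and their controls were wild-type DU145 given DMSO. The oeATOH8 cells overexpressed the helix-loop-helix protein ATOH8, and oeCTRL cells were the controls labelled for that overexpression. The RSL3 dose, the promoter of the construct and the number of clones are not given in the sources used here. Both deposited tables hold only genes that the authors listed as changed, so a gene outside a table has no value. Since the 7 genes were picked from these comparisons, their values are described and no test is given for them.

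NF-kB is a family of dimeric transcription factors that IkB proteins hold in the cytoplasm until signals from cytokine or Toll-like receptors destroy the IkB. The freed dimer binds kB sites and switches on chemokines and cytokines, and also genes that end the signal. NFKBIA encodes IkB-alpha, which binds NF-kB and takes it out of the nucleus. ZC3H12A encodes Regnase-1, an endonuclease that cuts stem-loops in inflammatory mRNAs, IL6 mRNA among them. CXCL1, CXCL2 and CXCL8 are neutrophil-attracting ligands of the receptor CXCR2, and CXCL8 is also a ligand of CXCR1. IL6 signals through IL6ST (gp130) to STAT3, and IL24 is a cytokine of the IL10 family that signals through receptors containing IL20RB. DU145 is known for making IL6 and for NF-kB that is active without stimulation.

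The starts of all 7 genes are shown so that those with and without the kB letters searched for can be compared. Each run is 300 bases of RefSeq sequence (GRCh38.p14), 5′ to 3′ on the gene's own strand, from 250 bases before the annotated start to 50 after it. For IL6 the RefSeq start lies inside the span of the authors' row. Capitals mark GGANTTTCC on either strand, 9 letters at the core of many kB sites.
CXCL1 (chr4:73869143-73869442, plus strand): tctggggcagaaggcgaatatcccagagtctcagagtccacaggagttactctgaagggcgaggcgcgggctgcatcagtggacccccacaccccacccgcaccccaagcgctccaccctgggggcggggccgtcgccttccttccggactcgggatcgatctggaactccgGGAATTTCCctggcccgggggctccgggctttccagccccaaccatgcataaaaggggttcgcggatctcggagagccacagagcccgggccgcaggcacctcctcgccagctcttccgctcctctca
CXCL2 (chr4:74099146-74099445, minus strand): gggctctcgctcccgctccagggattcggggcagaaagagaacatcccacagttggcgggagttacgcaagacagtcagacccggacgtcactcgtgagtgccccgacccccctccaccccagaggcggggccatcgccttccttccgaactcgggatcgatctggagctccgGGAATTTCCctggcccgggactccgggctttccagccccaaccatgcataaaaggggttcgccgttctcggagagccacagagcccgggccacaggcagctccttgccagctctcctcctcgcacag
CXCL8 (chr4:73740319-73740618, plus strand): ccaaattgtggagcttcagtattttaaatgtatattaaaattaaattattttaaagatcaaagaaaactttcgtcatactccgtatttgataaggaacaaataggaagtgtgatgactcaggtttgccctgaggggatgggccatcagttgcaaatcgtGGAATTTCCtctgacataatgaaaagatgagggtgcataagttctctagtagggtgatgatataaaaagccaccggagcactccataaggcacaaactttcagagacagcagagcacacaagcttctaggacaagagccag
NFKBIA (chr14:35404700-35404999, minus strand): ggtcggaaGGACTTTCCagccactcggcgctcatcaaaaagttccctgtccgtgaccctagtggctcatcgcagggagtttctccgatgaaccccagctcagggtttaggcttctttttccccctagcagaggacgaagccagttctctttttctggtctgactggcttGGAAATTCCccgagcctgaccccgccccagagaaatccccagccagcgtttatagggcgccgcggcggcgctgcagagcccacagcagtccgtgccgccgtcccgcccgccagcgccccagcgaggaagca
IL6 (chr7:22726950-22727249, plus strand): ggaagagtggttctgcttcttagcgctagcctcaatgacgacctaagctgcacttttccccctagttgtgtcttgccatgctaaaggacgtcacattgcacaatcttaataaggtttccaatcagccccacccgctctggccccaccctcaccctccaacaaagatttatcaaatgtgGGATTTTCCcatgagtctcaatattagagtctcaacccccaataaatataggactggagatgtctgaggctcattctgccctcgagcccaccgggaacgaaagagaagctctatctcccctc
IL24 (chr1:206897193-206897492, plus strand): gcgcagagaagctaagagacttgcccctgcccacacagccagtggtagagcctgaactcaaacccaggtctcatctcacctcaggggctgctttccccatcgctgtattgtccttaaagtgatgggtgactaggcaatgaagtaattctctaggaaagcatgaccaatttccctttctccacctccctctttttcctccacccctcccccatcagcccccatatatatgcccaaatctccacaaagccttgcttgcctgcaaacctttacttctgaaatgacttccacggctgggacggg
ZC3H12A (chr1:37474330-37474629, plus strand): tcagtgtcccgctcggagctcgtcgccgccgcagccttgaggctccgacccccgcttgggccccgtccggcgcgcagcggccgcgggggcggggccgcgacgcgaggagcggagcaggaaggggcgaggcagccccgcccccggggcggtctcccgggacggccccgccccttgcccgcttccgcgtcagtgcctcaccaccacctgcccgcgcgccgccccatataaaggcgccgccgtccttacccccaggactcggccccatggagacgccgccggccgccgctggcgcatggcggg

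The 9 letters were found in 5 of the 7 windows, against 1.64% of 27305 RefSeq windows of the same length. They were chosen with these windows in view, so the count is a description. In CXCL1 and CXCL2 the same 9 letters began 78 and 77 bases before the start, in windows that were 72.9% identical over their alignment. They began 91 bases before the start in CXCL8 and 72 in IL6, and in NFKBIA they were found at 242 and, on the opposite strand, at 81. The wider NF-kB consensus (both strands, and overlapping these letters wherever it was found in a member) was found in CXCL1, CXCL2, NFKBIA and IL6, that is in 4 of 7 members and in 5.72% of all windows. The windows of ZC3H12A and IL24, both lower with RSL3, held neither. CXCL8 alone held the AP-1 sequence TGANTCA (7.76% of all windows) and IL6 alone the C/EBP sequence TTGCNNAAT (2.74%), each searched on both strands. Only exact matches were counted, so a window without these letters may still hold a variant site. The E-box letters CANNTG, the kind of sequence that helix-loop-helix factors bind, were in the windows of CXCL2, CXCL8, ZC3H12A and IL6 but not of CXCL1, NFKBIA or IL24, and in 68.9% of all windows.

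ATOH8 read 358, 429 and 470.2 normalised counts in RSL3 libraries against 26.4, 35.1 and 40.1 in DMSO libraries, and 76508, 72569 and 76043 reads in oeATOH8 against 13, 10 and 4 in oeCTRL. The overexpression thus followed its label. Reads over listed genes ranged from 2523743 to 3096832 per library in the RSL3 table and from 1508188 to 2226518 in the ATOH8 table. These sums cover listed genes only, and the library depth is not given in the sources used here. In both the RSL3 and the DMSO group, replicate 1 stood apart from replicates 2 and 3. The chi-square per degree of freedom between replicates 2 and 3 was 1.8 in RSL3 and 1.64 in DMSO, where counting error alone gives about 1, and at least 59.1 for any pair with replicate 1. Each member's RSL3 result is therefore also given within replicate 1 and within replicates 2 and 3. The same measure was 6.34 to 9.23 between oeCTRL replicates. Between oeATOH8 replicates 2 and 3 it was 12.8, and for oeATOH8 replicate 1 with replicates 2 and 3 it was 39.3 and 29.6. The labels do not say that replicates came from separate cultures, so p-values measure only the spread between libraries, which may be technical. Of the 32 markers of other cell types, the RSL3 table held 1, CD68, a lysosomal protein used as a macrophage marker, at 4290.3, 1534.6 and 1497.9 in RSL3 against 1606.9, 829.2 and 787.3 in DMSO, which did not pass the test (limma adjusted p = 0.054, and 0.00276 with the replicate block). The ATOH8 table held 1 of 5 fibroblast markers, COL1A2 (92, 72 and 114 reads in oeATOH8 against 0, 0 and 5 in oeCTRL), and 3 of 4 erythroid markers, HBB, HBA1 and HBA2, whose summed reads were 56662, 3141 and 13206 in oeATOH8 against 13, 7 and 4 in oeCTRL. Of 6 epithelial markers of DU145, EPCAM and CDH1 were in the RSL3 table, and together they read 99.9, 279.5 and 307.8 in RSL3 against 701.2, 879.5 and 907.7 in DMSO. KRT8 and CDH1 were in the ATOH8 table, with 6149, 6531 and 6187 reads together in oeATOH8 against 17667, 16611 and 16998 in oeCTRL. The part of these markers in the results below was not tested. None of the 5 luminal prostate markers searched for was in either table.

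With RSL3 all 3 chemokines were lower, by 2.53-fold to 3.09-fold in group means. CXCL1 (chromosome 4, 73869393 to 73871308, GRCh38) read 139, 254 and 242 normalised counts in RSL3 replicates 1, 2 and 3 against 588, 589 and 603 in DMSO replicates 1, 2 and 3. The highest RSL3 library lay below the lowest DMSO library, and RSL3 replicate 1 was the lowest of all. CXCL1 was 2.80-fold lower as a ratio of group means, with a fitted log2 fold change of log2(value + 1) of -1.53 (SE 0.26), or 4.23-fold lower within replicate 1 and 2.40-fold within replicates 2 and 3. CXCL2 (chromosome 4, 74097040 to 74099195), a close paralog that attracts the same cells, read 158, 320 and 315 in RSL3 against 902, 802 and 744 in DMSO. It was 3.09-fold lower (log2 -1.69, SE 0.30), 5.72-fold within replicate 1 and 2.43-fold within replicates 2 and 3. RSL3 replicate 1 was again the low library, while all 3 DMSO libraries were high. CXCL8 (chromosome 4, 73740569 to 73743716), also called interleukin-8, read 268, 323 and 328 in RSL3 against 459, 919 and 941 in DMSO. Here the library that stood out was DMSO replicate 1, so CXCL8 was 2.53-fold lower in all (log2 -1.27, SE 0.30) but 1.72-fold within replicate 1 and 2.86-fold within replicates 2 and 3. In bulk RNA, fewer cells making a transcript and less of it per cell cannot be told apart. CXCL1, CXCL2 and their relative CXCL3 have similar sequences, so the aligner may have shared some reads between them.

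**Figure D1:**
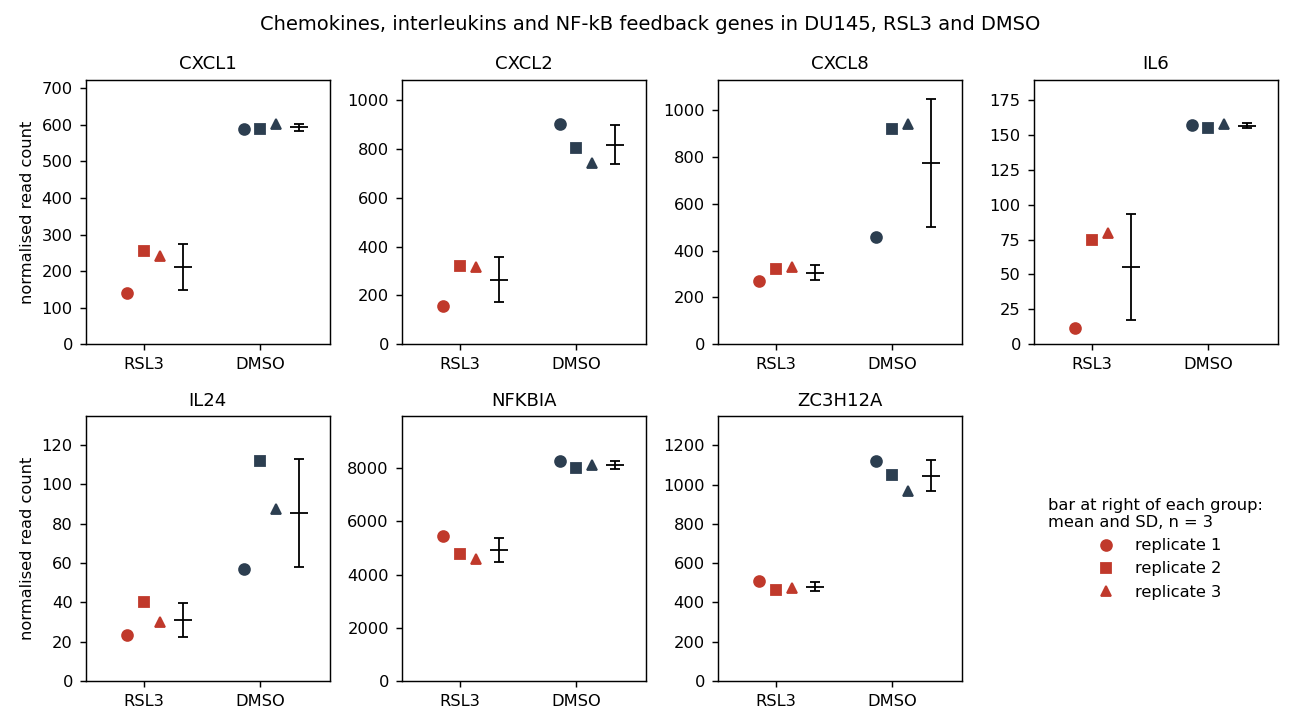
Normalised read count (read count over the authors' size factor) of each gene in each RSL3 library (left, red) and DMSO library (right, dark), with a symbol per replicate and the mean and SD beside each group, n = 3. All 7 genes were lower in every RSL3 library than in any DMSO library, and IL6 in RSL3 replicate 1 was at 11.6 against 75.0 and 79.8 in the other RSL3 libraries.

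IL6 and IL24 were lower as well. IL6 (chromosome 7, 22725889 to 22732002) read 11.6, 75.0 and 79.8 normalised counts in RSL3 against 157, 155 and 158 in DMSO. DMSO libraries were nearly equal, and RSL3 replicate 1, with 8 recovered reads, lay far below the other RSL3 libraries. IL6 was 2.83-fold lower in group means (log2 -1.89, SE 0.67), 13.6-fold within replicate 1 and 2.02-fold within replicates 2 and 3. IL24 (chromosome 1, 206897404 to 206904139) read 23.2, 40.3 and 30.0 in RSL3 against 57.2, 112 and 87.3 in DMSO. The groups did not overlap, but IL24 counts were the lowest of the 7 genes in every library but RSL3 replicate 1, with 16, 43 and 32 recovered reads in RSL3 and 52, 147 and 100 in DMSO. It was 2.74-fold lower (log2 -1.41, SE 0.36), 2.47-fold within replicate 1 and 2.84-fold within replicates 2 and 3. The annotated span of IL6 shares 1732 bases with IL6-AS1 and that of IL24 shares 823 bases with FCMR, both on the opposite strand. Strandedness is not given in the sources used here, so reads of those genes cannot be told apart from IL6 and IL24 where they overlap.

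The feedback genes had the smallest differences of the 7 genes and the smallest standard errors. NFKBIA (chromosome 14, 35401513 to 35404749) read 5454.5, 4770.8 and 4601.5 normalised counts in RSL3 against 8291.6, 8004.1 and 8111.7 in DMSO. It was 1.65-fold lower (log2 -0.72, SE 0.17), 1.52-fold within replicate 1 and 1.72-fold within replicates 2 and 3. ZC3H12A (chromosome 1, 37474518 to 37484377) read 507, 465 and 471 in RSL3 against 1123, 1051 and 966 in DMSO. It was 2.18-fold lower (log2 -1.12, SE 0.17), and 2.22-fold and 2.15-fold within the same replicate sets. For both genes the RSL3 libraries lay close together, with RSL3 replicate 1 the highest of them rather than the lowest as for the chemokines and interleukins.

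In the RSL3 comparison all 7 genes were lower with groups that did not overlap, as were 37.2% of the 1720 listed genes that passed the low-count filter (49.8% were higher in the same way, 86.9% in all). The choice of genes used this contrast, so this count says nothing more about them. The median log2 fold change was -1.41 over the 7 genes and 0.52 over all 1720, or -1.09 over the 790 that were lower. IL6, CXCL2 and CXCL1 ranked 88, 139 and 174 among those 790 by size of decrease, and NFKBIA ranked 642. The rank of IL6 leans on RSL3 replicate 1, where it had 8 reads. Without that library the log2 fold change was -1.01 for IL6, -1.35 for CXCL2 and -1.25 for CXCL1.

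**Figure D2:**
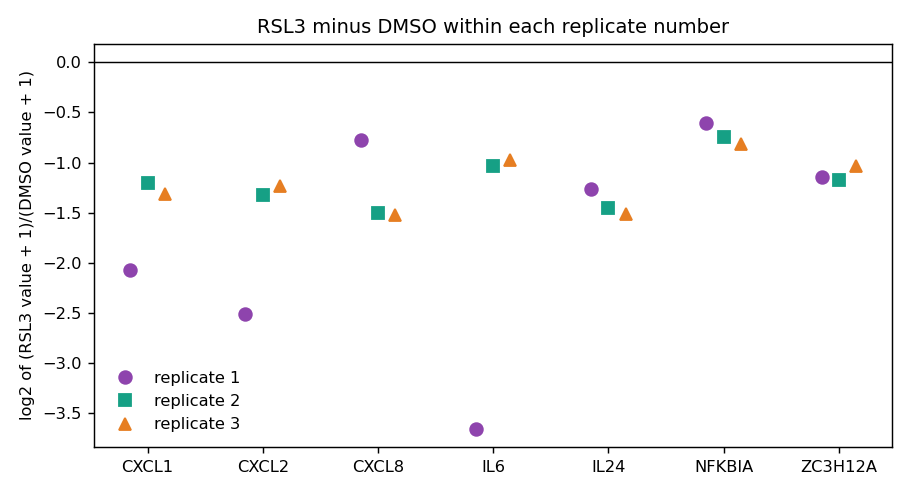
Log2 of the RSL3 value plus 1 over the DMSO value plus 1 for libraries with the same replicate number, by gene. Replicates 2 and 3 sat together for all 7 genes, while replicate 1 was lower for IL6 (-3.65), CXCL2 (-2.51) and CXCL1 (-2.07) and nearer to 0 for CXCL8 (-0.78).

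Counted per 100 NFKBIA reads of the same library, which removes the scaling between libraries, CXCL1 stood at 2.55, 5.33 and 5.26 in RSL3 against 7.09, 7.35 and 7.43 in DMSO. CXCL2 stood at 2.89, 6.70 and 6.85 in RSL3 against 10.9, 10.0 and 9.17 in DMSO, and ZC3H12A at 9.29, 9.75 and 10.2 against 13.5, 13.1 and 11.9. IL6 stood at 0.212, 1.57 and 1.73 in RSL3 against 1.90, 1.94 and 1.95 in DMSO. These 4 genes were therefore lower relative to NFKBIA in every RSL3 library than in any DMSO library. NFKBIA ranked 642 among the 790 lower genes, so most lower genes had a larger fitted decrease than it had. The share of all listed genes without overlap on this scale was not computed, so the count is only a description. CXCL8 (4.91, 6.76 and 7.12 in RSL3 against 5.54, 11.5 and 11.6 in DMSO) and IL24 (0.425, 0.845 and 0.653 against 0.689, 1.40 and 1.08) overlapped between the groups on this scale, with DMSO replicate 1 inside the RSL3 range.

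Per kilobase of annotated exon, NFKBIA had the highest level of the 7 genes in both groups, at 2083 ± 190.3 normalised counts in RSL3 and 3429 ± 61.2 in DMSO (SD, n = 3). CXCL2 followed with 176 ± 61.5 in RSL3 and 544 ± 53.5 in DMSO, and CXCL1 with 163 ± 48.9 and 458 ± 6.57. ZC3H12A had 154 ± 7.20 in RSL3 and 335 ± 25.2 in DMSO, and CXCL8 had 135 ± 14.6 and 340.0 ± 119.6. The mean ± SD ranges of CXCL2, CXCL1, ZC3H12A and CXCL8 overlapped between neighbours in RSL3. In DMSO the range of CXCL8 overlapped those of CXCL1 and ZC3H12A, so CXCL8 has no clear place there. CXCL1 lay above ZC3H12A in DMSO, with ranges that did not overlap. IL6, at 26.8 ± 18.4 in RSL3 and 75.7 ± 0.745 in DMSO, and IL24, at 15.8 ± 4.37 and 43.2 ± 13.9, were the lowest, and their ranges overlapped in RSL3. The lengths are unions of all annotated exons, so the level of a gene that uses a short transcript is understated.

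Other listed genes followed the members closely over the 6 libraries. Likeness was the root-mean-square difference of log2(value + 1) after centring each gene on its own mean, over the 1370 genes of the table whose mean was 50 or more. CDCP1, an epithelial surface glycoprotein, was nearest to NFKBIA (0.04), with 2727 ± 240.1 in RSL3 and 4730 ± 137 in DMSO. CARMIL2 was nearest to ZC3H12A (0.078), PLBD1 to CXCL1 (0.125), SPAG1 to CXCL8 (0.126) and KCNK1, a potassium channel, to IL24 (0.175). Both genes nearest to CXCL2 are known as interferon-stimulated, DHX58 (0.141), an RNA sensor of the RIG-I family, and MX1 (0.16), an antiviral GTPase at 263 ± 103 in RSL3 and 846 ± 64.3 in DMSO. CAVIN2, a caveolar coat protein, was nearest to IL6 (0.191) at 247 ± 163 in RSL3 and 648 ± 117 in DMSO. The second nearest were CCDC120 to NFKBIA (0.065), TNNI3 to ZC3H12A (0.098), DIPK2A to CXCL8 (0.135), RBM23 to CXCL1 (0.144), NAV2 to IL24 (0.189) and PGM5 to IL6 (0.226). All of these are listed as changed genes. The search was not limited by direction, but the measure picks genes with similar changes, so their shared direction follows from it.

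Other genes of the pathway were taken from 8 lists of 172 genes that were also drawn up with earlier results known. The RSL3 table held 22 of them, of which 21 passed the low-count filter and were tested. Of these, 17 fell and 1 rose at a limma adjusted p of 0.05 over listed genes, and 3 did not pass, where 38.4% of the 1720 tested genes fell and 43.4% rose (81.7% passed in all). With the replicate number as a block 18 fell and 3 rose. No gene of these lists passed limma's test when DMSO replicate 2 or DMSO replicate 3 was left out (at an unadjusted p under 0.05, 13 and 14 were lower and 1 and 0 higher), and 7 and 8 of them fell without RSL3 replicate 2 or RSL3 replicate 3. With all 59788 annotated genes counted as tests 0.116% of listed genes passed in limma and none of these lists, where the unadjusted p was under 0.05 for 17 lower and 1 higher. DESeq2 on the recovered reads, adjusted over listed genes, had 18 lower and 3 higher.

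Of the 14 chemokines on the list, which leaves out the members, 3 were in the RSL3 table. All 3 fell, in a table of changed genes where 38.4% of tested genes fell. CCL28, a mucosal epithelial chemokine, read 11.6, 26.3 and 25.3 in RSL3 against 71.4, 83.2 and 102 in DMSO, a 4.06-fold decrease (log2 -2.04, SE 0.38, limma adjusted p = 0.0149). CXCL5 read 0, 11.3 and 17.8 in RSL3 against 42.9, 65.7 and 57.6 in DMSO (5.71-fold lower, adjusted p = 0.037), and its log2 fold change of -3.18 (SE 1.01) depends on the 1 added before taking log2. CXCL6 read 2.90, 11.3 and 6.57 in RSL3 against 23.1, 48.9 and 27.9 in DMSO (4.82-fold lower, adjusted p = 0.0239). With the members, this made 5 of the 9 protein-coding genes between CXCL8 and CXCL2, a stretch of 359 kb on chromosome 4 that holds the CXC ligands of neutrophil receptors. CXCL3, PF4V1, PF4 and PPBP, the other 4, were not in the RSL3 table. LTB, lymphotoxin-beta, the only listed gene of the other cytokine families, fell 3.02-fold, but 1.23-fold within replicate 1 (261 in RSL3 against 321 in DMSO) and 4.33-fold within replicates 2 and 3.

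**Figure D3:**
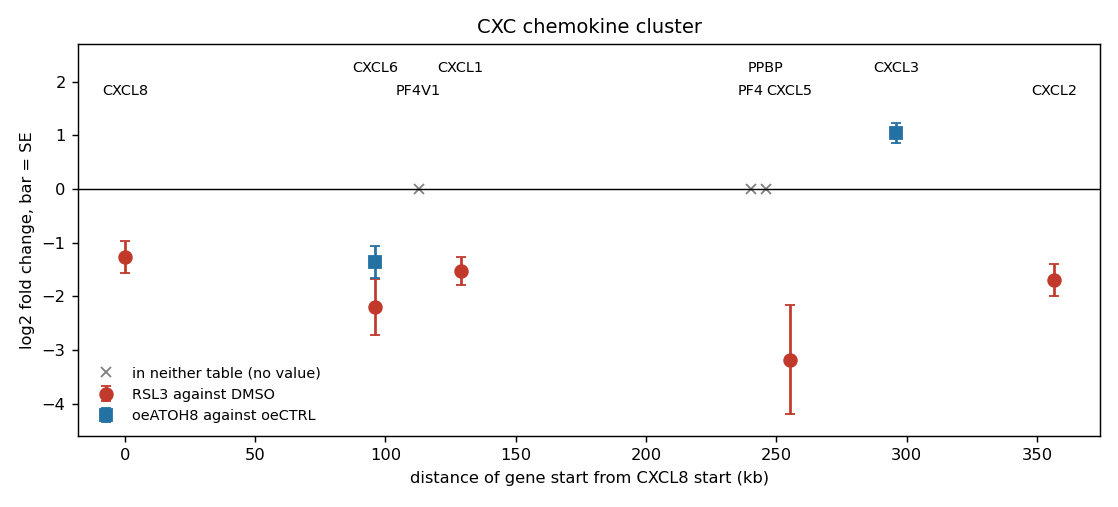
Log2 fold change with its SE for the 9 protein-coding genes of the CXC chemokine cluster, against the distance of each gene's start from that of CXCL8 in kb, for RSL3 against DMSO (red circles) and oeATOH8 against oeCTRL (blue squares). The 5 genes of the RSL3 table lay between -1.27 and -3.18, and crosses at 0 mark genes with no value in either table.

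Of the 15 genes on the NF-kB feedback inhibitor list, 4 were in the table. These 4 all fell, in a table of changed genes where 38.4% of tested genes fell. TNFAIP3 (A20), an enzyme that edits ubiquitin chains on NF-kB activators, read 66.6, 203 and 184 in RSL3 against 291, 827 and 804 in DMSO, a 4.24-fold decrease (log2 -2.09, SE 0.54, limma adjusted p = 0.0266). Its decrease was 4.37-fold within replicate 1 and 4.22-fold within replicates 2 and 3. NFKBIZ, a nuclear IkB protein needed for IL6 induction in mouse macrophages and so not only an inhibitor, fell 2.97-fold (6.21-fold and 2.62-fold within the same sets). The A20-binding protein TNIP1 fell to 6942 ± 1218 in RSL3 against 11111 ± 1656 in DMSO, and the IkB protein NFKBID fell 1.72-fold. Of the RNA decay factors, ZFP36L1, which binds AU-rich elements, fell 1.85-fold (790 ± 82.9 in RSL3 and 1462 ± 220.4 in DMSO, adjusted p = 0.0191). ZC3H12C, a relative of Regnase-1, fell 3.04-fold (adjusted p = 0.049 by limma) with groups that overlapped.

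Among the NF-kB subunits and kinases, NFKB1, which encodes p105 and p50, fell 1.57-fold (757 ± 182 in RSL3 and 1186 ± 161 in DMSO, limma adjusted p = 0.0411). IKBKG (NEMO), the regulatory subunit of the IkB kinase, was the only gene of these lists that rose, 1.48-fold (1552, 1307 and 1280 in RSL3 against 1027, 941 and 823 in DMSO, adjusted p = 0.0369). IKBKG has a near-identical pseudogene copy, so its reads are uncertain, and it did not pass with libraries scaled to listed totals or by TMM. RELA, RELB and NFKB2 were not in the table. All 6 tested genes of the list of other NF-kB targets fell, where 38.4% of all tested genes fell. They were led by BIRC3, an inhibitor of apoptosis (7.25-fold), and BCL2A1, an anti-apoptotic BCL2 relative (7.15-fold). KYNU, an enzyme of tryptophan breakdown (5.71-fold), and CFB, complement factor B (2.09-fold), came next. The adhesion molecule ICAM1 fell 1.87-fold (4074 ± 1115 in RSL3 and 7628 ± 1089 in DMSO) and PTGES, a prostaglandin E synthase, 1.36-fold. Within replicate 1 and within replicates 2 and 3 the decreases were 3.04-fold and 8.37-fold for BIRC3, 13.8-fold and 5.96-fold for BCL2A1, 13.5-fold and 5.08-fold for KYNU, and 5.63-fold and 1.41-fold for CFB. The 3 genes that did not pass were IL6ST (37.0 ± 20.5 in RSL3 and 102 ± 58.9 in DMSO, limma adjusted p = 0.0719, and 0.00328 with the block), TNFRSF1B, which encodes TNF receptor 2 (546 ± 288 in RSL3 and 288 ± 99.5 in DMSO, 0.0636, and 0.00414 with the block), and CEBPB, a factor that acts with NF-kB at IL6 and CXCL8 (5481 ± 1748 in RSL3 and 3472 ± 897 in DMSO, 0.0559, and 0.00276 with the block).

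The windows before the starts of these genes were searched for GGANTTTCC in the same way. It was found in 7 of the 21 pathway genes of the RSL3 table that had a RefSeq window, namely NFKBIZ, CXCL6, CXCL5, NFKB1, LTB, TNFAIP3 and ICAM1. Over all 1353 listed genes of that table with a window the share was 2.51%. The lists were drawn up around NF-kB and its targets, and the letters were chosen with the members' windows in view. This count is therefore a description too. The letters are a match in sequence and not evidence that a factor bound there.

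ATOH8 overexpression moved IL24 and IL6 in opposite directions. IL24 had 2848, 3002 and 3442 reads in the oeATOH8 libraries against 443, 447 and 438 in the oeCTRL libraries. After scaling it stood at 3060 ± 285 in oeATOH8 and 447 ± 16.8 in oeCTRL (SD, n = 3), 6.84-fold higher with a log2 fold change of 2.77 (SE 0.09). IL6 had 202, 243 and 196 reads in oeATOH8 against 1099, 1072 and 962 in oeCTRL. After scaling it stood at 212 ± 32.5 in oeATOH8 and 1054 ± 60.9 in oeCTRL, 4.98-fold lower with a log2 fold change of -2.32 (SE 0.12). These sizes depend on how libraries were scaled, with log2 values of 2.32 to 3.68 for IL24 and -2.77 to -1.41 for IL6 over the scalings and other settings tried. For neither gene did the groups overlap, as for 99.6% of the 1424 rows of that table, all of which (100%) passed edgeR's test over listed rows. IL24 ranked 21 among the 589 higher rows and IL6 ranked 81 among the 835 lower rows. CXCL1, CXCL2, CXCL8, NFKBIA and ZC3H12A were not in the ATOH8 table, so no value can be given for them there.

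**Figure D4:**
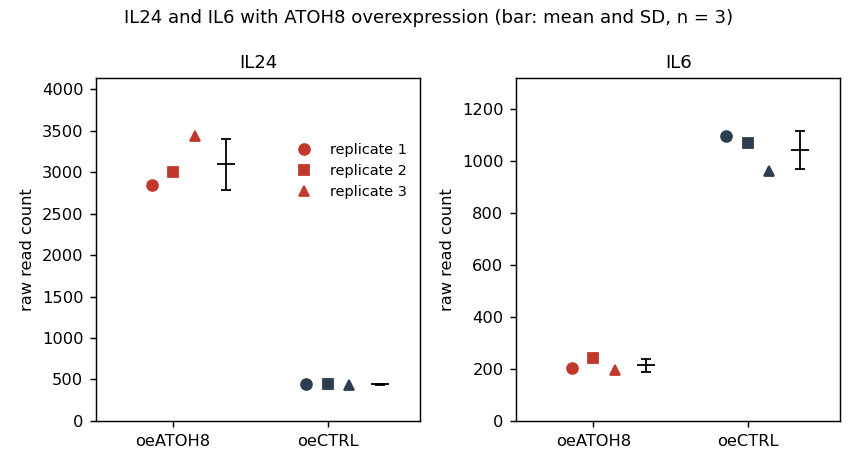
Raw read counts of IL24 and IL6 in each oeATOH8 library (left, red) and oeCTRL library (right, dark), with a symbol per replicate and the mean and SD beside each group, n = 3. IL24 lay between 2848 and 3442 in oeATOH8 against 438 to 447 in oeCTRL, and IL6 between 196 and 243 in oeATOH8 against 962 to 1099 in oeCTRL.

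The order of the pair turned round between the groups. Per IL6 read there were 14.1, 12.4 and 17.6 IL24 reads in oeATOH8 libraries and 0.403, 0.417 and 0.455 in oeCTRL libraries, a ratio within each library that does not depend on how libraries were scaled. Per kilobase of exon, IL24 was at 1546 ± 144 and IL6 at 102 ± 15.7 scaled counts in oeATOH8, while IL24 was at 226 ± 8.46 and IL6 at 509 ± 29.4 in oeCTRL. With RSL3 the same read ratio was 2.00, 0.537 and 0.376 against 0.364, 0.724 and 0.552 in DMSO, with groups that overlapped and RSL3 replicate 1 apart. Thus IL6 was lower in both comparisons (log2 -1.89 with RSL3 and -2.32 with ATOH8) and IL24 lower with RSL3 (-1.41) but higher with ATOH8 (2.77). The comparisons share no libraries, and the difference between them was not tested. CDH3, which encodes P-cadherin, was nearest to IL6 in pattern over the 6 libraries (root-mean-square difference 0.092, 512 ± 58.3 in oeATOH8 and 2479 ± 149 in oeCTRL). G0S2, an inhibitor of the lipase ATGL, was nearest to IL24 (0.172, 6690 ± 329 in oeATOH8 and 1167 ± 37.8 in oeCTRL), then the metallothionein MT2A (0.259), and OLFML2A (0.118) was the second nearest to IL6.

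Of the same pathway lists, 26 genes were in the ATOH8 table, and 15 rose and 11 fell by edgeR's quasi-likelihood test over listed rows, where 41.4% of all rows rose and 58.6% fell. With all 75204 annotated genes and loci counted as tests, 24 of the 26 still passed, as did 82% of all rows. The words rose and fell are kept here for those 24, and adjusted p-values below are by that larger count. CXCL6 (35, 61 and 52 reads in oeATOH8 against 121, 149 and 102 in oeCTRL, edgeR adjusted p = 0.0529) was 1 of the 2 exceptions. Of the 24 cytokines on the list, which leaves out IL6 and IL24, 4 were in the table and all 4 rose, whereas IL6 was lower. IL11, which signals through IL6ST as IL6 does, had 2538, 2375 and 2557 reads in oeATOH8 against 761, 490 and 555 in oeCTRL, a 4.07-fold rise (log2 2.02, SE 0.12, edgeR adjusted p = 1.5e-06). LIF, another ligand of IL6ST, had 12205, 12204 and 12534 reads in oeATOH8 against 5462, 5298 and 5309 in oeCTRL, a 2.25-fold rise. LTB rose 2.96-fold and the proinflammatory cytokine IL32 2.14-fold. Of the chemokines, CXCL3 had 914, 797 and 628 reads in oeATOH8 against 372, 457 and 284 in oeCTRL, a 2.06-fold rise (adjusted p = 0.0111).

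Among NF-kB subunits and adaptors 3 rose and 1 fell with ATOH8. NFKB1 had 4656, 4882 and 4797 reads in oeATOH8 against 2315, 2182 and 2132 in oeCTRL (2.12-fold higher, edgeR adjusted p = 2.04e-06). The adaptors TRAF1 and IRAK2 rose 2.45-fold and 2.50-fold, and MAP3K8 (TPL2), a kinase that works with p105, fell 3.38-fold. TNFRSF1B rose 2.19-fold, and TLR3, the receptor for double-stranded RNA, fell 3.17-fold to 89, 61 and 38 reads in oeATOH8 against 162, 216 and 203 in oeCTRL. No gene of the feedback inhibitor list was in this table. ZFP36 (tristetraprolin), which binds AU-rich elements and promotes decay of cytokine mRNAs, fell 2.58-fold, to 1541, 1360 and 1298 reads in oeATOH8 against 3844, 3219 and 3568 in oeCTRL (edgeR adjusted p = 1.95e-06). Of the other NF-kB targets 4 rose, the stress gene GADD45B 4.87-fold, the pentraxin PTX3 3.78-fold, the anti-apoptotic BCL2L1 2.18-fold and PLAU (urokinase) 2.10-fold. Complement C3 fell 4.27-fold, CFB 3.50-fold and BCL2A1 2.33-fold. Of the factors that act beside NF-kB, FOS fell 11.0-fold (212, 206 and 228 reads in oeATOH8 against 2358, 2164 and 2404 in oeCTRL) and FOSB 6.99-fold, while the AP-1 subunit FOSL1 rose 2.72-fold and CEBPB 2.02-fold. GGANTTTCC was found in the windows of CXCL6, CXCL3, NFKB1, LTB, MAP3K8 and IL32. That is 6 of 21 with a window, against 3.08% of 876 listed genes with one, and is again only a description.

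**Figure D5:**
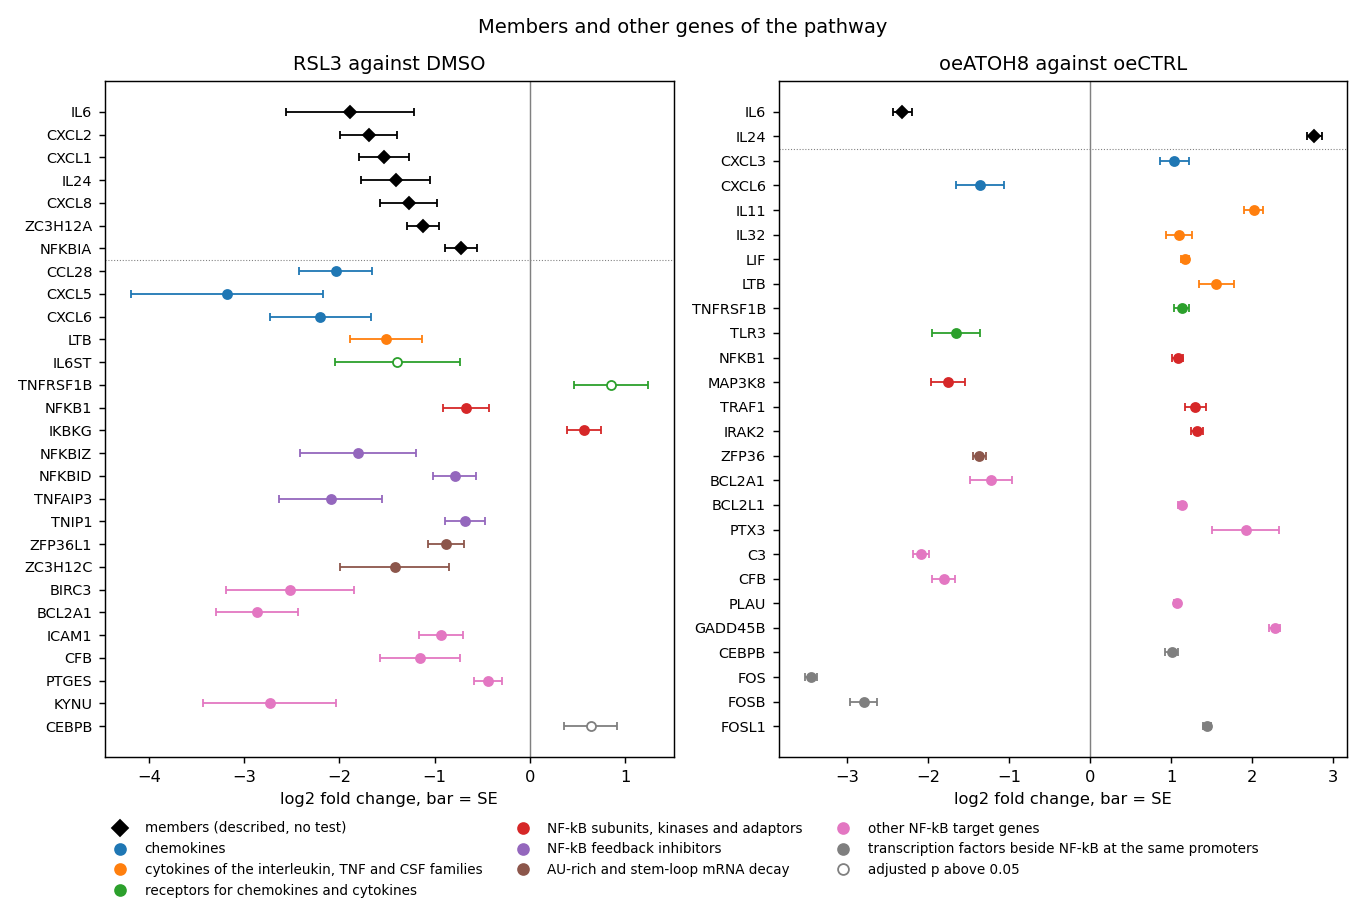
Log2 fold change with its SE for members (diamonds, above the dotted line, with no test) and other pathway genes (circles, coloured by list, open where the adjusted p over listed genes was above 0.05), for RSL3 against DMSO on the left and oeATOH8 against oeCTRL on the right. With RSL3 most genes lay left of 0, among them all those shown from the feedback inhibitor list. With ATOH8 the genes shown lay on both sides of 0.

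Of the pathway genes with a fitted value in both tables, BCL2A1 (log2 -2.86 with RSL3 and -1.22 with ATOH8), CFB (-1.15 and -1.81) and CXCL6 (-2.20 and -1.36) were lower in both, like IL6. LTB (-1.51 and 1.56) and NFKB1 (-0.67 and 1.08) were lower with RSL3 and higher with ATOH8, like IL24. CEBPB (0.64 and 1.01) and TNFRSF1B (0.85 and 1.13) were higher in both, although neither passed the test with RSL3 without the block. The difference between the comparisons was not tested for any of these genes.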

How the data were processed

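Per the submitters' processing notes, fastp, HISAT2, StringTie and DESeq2 and the build hg38 (GRCh38) were used, with no versions or roles. Values of the RSL3 table are a signal that the authors made by dividing reads by a size factor: 100% were whole multiples of 1 step per library (tolerance 0.001), and the steps gave factors of 0.691 to 1.31. The ATOH8 table was deposited as read counts before any normalization, and its column headings NC and OE, with their numbers, were taken to mean the oeCTRL and oeATOH8 libraries. RSL3 rows were named by position (1064 with the span of a RefSeq gene, 707 by overlap of at least 0.5 of the longer span, 13 from GENCODE, 26 unnamed), and 1146 of 1152 Ensembl identifiers had a symbol. No per-sample value column was left unused (0 columns).

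A low-count filter (filterByExpr of edgeR, at least 10 counts and a total of at least 15) took 90 genes out of the RSL3 table. The rest were fitted with limma 3.58.1 on log2(value + 1) with a variance trend. ATOH8 counts were tested with edgeR 4.0.16 (quasi-likelihood), with libraries scaled within a group by median ratios and the groups centred on the gap in log2 ratios between higher and lower rows (-0.97 to 1.03 before, -1 to 1 after). Adjustment was Benjamini-Hochberg at 0.05, two-sided, over the rows of a table that passed the filter, under R 4.3.3. DESeq2 1.42.0 was an alternative. Folds are ratios of group means, log2 fold changes come from the fits. Both fits were also run on simulated counts. These had independent libraries and mostly unchanged genes, so they do not cover the split of replicate 1 or a table of changed genes.

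In the RSL3 table, libraries of the same number deviated together from their group means (r = 0.68, 0.61 and 0.612 over listed genes). The numbers were therefore taken to pair those libraries in the block. Since replicates 2 and 3 were nearly alike within each group, these values mostly reflect how replicate 1 differed. They cannot show which library of replicates 2 and 3 pairs with which. The pairing comes from the data and not from the labels. The members, lists, motifs and tests were chosen with earlier results of these data known. Named genes were the members, the 2 nearest in pattern of each, and per list and direction up to 6 passing genes with the smallest adjusted p, and ATOH8. A few genes counted in the lists are not reported here by name or value. Intervals were not computed, and the library depth is not given in the sources used here.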

Additional observations from a re-analysis of the deposited data

How the results depend on the processing

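All 7 members stayed lower with RSL3, and IL6 lower and IL24 higher with ATOH8, under every alternative run; of 154 member values 14 moved by more than 1 SD between replicates and 0 changed sign. IL6 with RSL3 ranged from -2.35 to -1.01 (log2), and was -1.01 without RSL3 replicate 1, and NFKBIA from -1.20 to -0.67; with ATOH8, IL24 ranged from 2.32 (listed totals) to 3.68 (relative log expression) and IL6 from -2.77 to -1.41 under the same settings. The number of RSL3 genes called was 1406 (53.1% higher), against 617 scaled to listed totals (24.6% higher, median shift -0.47 in log2), 910 by TMM (30.3% higher, shift -0.29), 2 with all annotated genes taken as tests and 3 with replicates 2 and 3 averaged as 1 library, a setting chosen after seeing the data. Leaving out 1 library gave 6 to 1437 calls (6 without DMSO replicate 2, 8 without DMSO replicate 3, 253 and 301 without RSL3 replicates 2 and 3), 0 to 17 pathway genes lower and 0 to 3 higher. Pathway genes lower numbered 17, and 0 with every annotated gene as a test or with replicates 2 and 3 averaged without the block, against 18 averaged with it. Pathway genes higher numbered 1, against 2 with no filter, 3 under DESeq2, the replicate block (1708 genes called), replicate 1 as a term, or averaging with the block, and 0 under both scalings, with every annotated gene as a test or with averaging alone. In the ATOH8 table, relative log expression over listed genes (shift 0.91) called 7 pathway genes lower, against 11, and 418 rows lower and 589 higher (58.5%), against 835 and 589 (41.4%); totals and TMM shifted it by -0.46 and 0.31. There the equal replicate numbers correlated at 0.041, 0.053 and 0.074, so they share only a number, and the block called 1424 rows, as without it. These scalings take genes listed as changed as unchanged on balance. For the rest the cause was not tested. IL6 in RSL3 replicate 1 (8 reads) and IL24 rest on few reads.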
